A study of Mus musculus with 20 samples.

Results

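The 8 genes described here make, cut or bind hyaluronan. Their transcripts were compared between uncultured lung cells of the mouse and lung cells cultured on flat plates or in collagen gels. The synthases were Has1 and Has2, the genes of hyaluronan breakdown were Cemip, Hyal1 and Hyal2, the receptor was Cd44, and the matrix partners were Vcan and Tnfaip6. They were chosen by role and found by gene symbol. All 8 were among the 18012 genes that carried values, of 67228 listed, and all 8 passed the filter on low counts in both fits, so that none was lost before testing.

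Hyaluronan is a long unsulfated sugar chain that synthases in the plasma membrane build from UDP-glucuronic acid and UDP-N-acetylglucosamine and push out into the matrix. The hyaluronidase HYAL2 at the cell surface, HYAL1 in lysosomes and CEMIP, a hyaluronan-binding protein that human skin fibroblasts need to break down the polymer, shorten these chains. CD44 holds hyaluronan at the cell surface, versican binds it along its length, and TSG-6, the product of Tnfaip6, moves heavy chains of inter-alpha-inhibitor onto it. In the lung, hyaluronan builds up in the interstitium after injury, and fibroblasts are among the cells that make it.

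RNA came from lungs of untreated male C57BL/6 mice, freed with collagenase. Whole digests were first grown for 4 days on plates (2D) or in collagen hydrogels (3D) and then for 2 further days on the same or the other substrate, so that a name such as 3D-2D gives the first and then the second culture. The fifth group, Sort_Fib, was not cultured; magnetic particles had removed cells with CD45, EpCam or CD31 from it. RNA-seq was run on 4 libraries from each of the 5 groups. No such depletion is described for the cultures, which began from whole digests. Differences from Sort_Fib are thus between differently prepared cells and are not changes over time in the same cells. None of the 5 groups was collected at the change of substrate, so differences between cultures compare end points. No source states which libraries came from separate animals, so the spread behind each p-value is that between libraries and may be technical. The study's title names the persistence and reversal of the transcriptome after a change of substrate, and the 2 by 2 layout of first and second substrate addresses it.

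The cultured libraries held 19672129 to 20328950 counts and the Sort_Fib libraries 11662513 to 13951809. Replicate 3 of 3D-3D stood further from its group than any other library, at a chi-square of 32.62 to 39.31 per degree of freedom against its replicates, where all other pairs of a group lay between 2.8 and 25.58; results are given with and without it where it changes a call. Levels below are in CPM, counts scaled to a common library total, after TMM scaling, means are over 4 libraries with their SD, and differences are log2 values with their standard error from edgeR, called at an adjusted p below 0.05. Fibroblast markers were high in every group, with Col1a1 at a mean of 1827 CPM in Sort_Fib and 2367 to 9752 CPM in the cultures. Pdgfra went the other way, at 514 CPM in Sort_Fib and 178 to 396 CPM in the cultures (group means). The summed level of 8 fibroblast markers was 8720 to 9330 CPM in Sort_Fib, 6700 to 8970 in 3D-2D and 9320 to 18800 in the other cultures. Markers of other cells were also present: the summed level of 9 macrophage and monocyte markers was 4980 to 16600 CPM in all libraries, and Sort_Fib still held 395 CPM of Ptprc (CD45) and 395 CPM of Pecam1 (CD31). In these bulk libraries, fewer cells of a type and less RNA per cell cannot be told apart.

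Most genes differed between the groups, so counts of members are set against the share of all genes called. Between 3D-3D and 2D-2D 6 of the 8 genes were called, 4 higher and 2 lower in 3D-3D, where 73.5% of 13704 genes were called (38.6% higher and 34.9% lower). A move from 2D to 3D (2D-3D against 2D-2D) gave 3 of 8, all lower, with 71.2% of all genes called (36.5% higher and 34.7% lower). The opposite move (3D-2D against 3D-3D) gave 5 of 8, 2 higher and 3 lower, with 70.5% (32.8% higher and 37.7% lower). In gels, the first substrate separated 3 of 8, 2 higher and 1 lower in 3D-3D than in 2D-3D, with 27.7% of all genes (15% higher and 12.7% lower). On plates it separated 1 of 8, lower in 3D-2D than in 2D-2D, with 20.4% (9.74% higher and 10.6% lower). The 2 crossed cultures differed in 3 of 8, all higher in 3D-2D than in 2D-3D, with 69.1% (33.2% higher and 36% lower). The interaction of first and second substrate was called for 2 of 8, both positive, with 19.4% (10.3% positive and 9.1% negative).

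Against Sort_Fib, 8 of 8 were called in 2D-2D, 4 higher and 4 lower, where 84.6% of 14715 genes were (38.5% higher and 46.1% lower). In 2D-3D 8 of 8 were called, 3 higher and 5 lower, with 78.1% of all genes (38.2% higher and 39.9% lower). In 3D-2D it was 7 of 8, 3 higher and 4 lower, with 83.9% (38.1% higher and 45.8% lower). In 3D-3D it was 8 of 8, 3 higher and 5 lower, with 77.8% (38.5% higher and 39.3% lower). These 4 comparisons share the Sort_Fib libraries.

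Scaling by library size alone in place of TMM moved the median of all genes by 0.32, 0.28 and -0.23 in 3D-3D against 2D-2D, 2D-3D against 2D-2D and 3D-2D against 3D-3D, and by 0.09, -0.19, -0.33 and -0.25 in 3D-2D against 2D-2D, 2D-3D, and 2D-2D and 3D-2D against Sort_Fib. The share of calls that were higher went from 52.5% to 70.9%, 51.3% to 67.5%, 46.5% to 31.2%, 47.8% to 68.6% and 47.9% to 35.6% in 3D-3D against 2D-2D, 2D-3D against 2D-2D, 3D-2D against 3D-3D, 3D-2D against 2D-2D and 3D-2D against 2D-3D; calls that this scaling ends or adds are given with each gene.

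**Figure D1:**
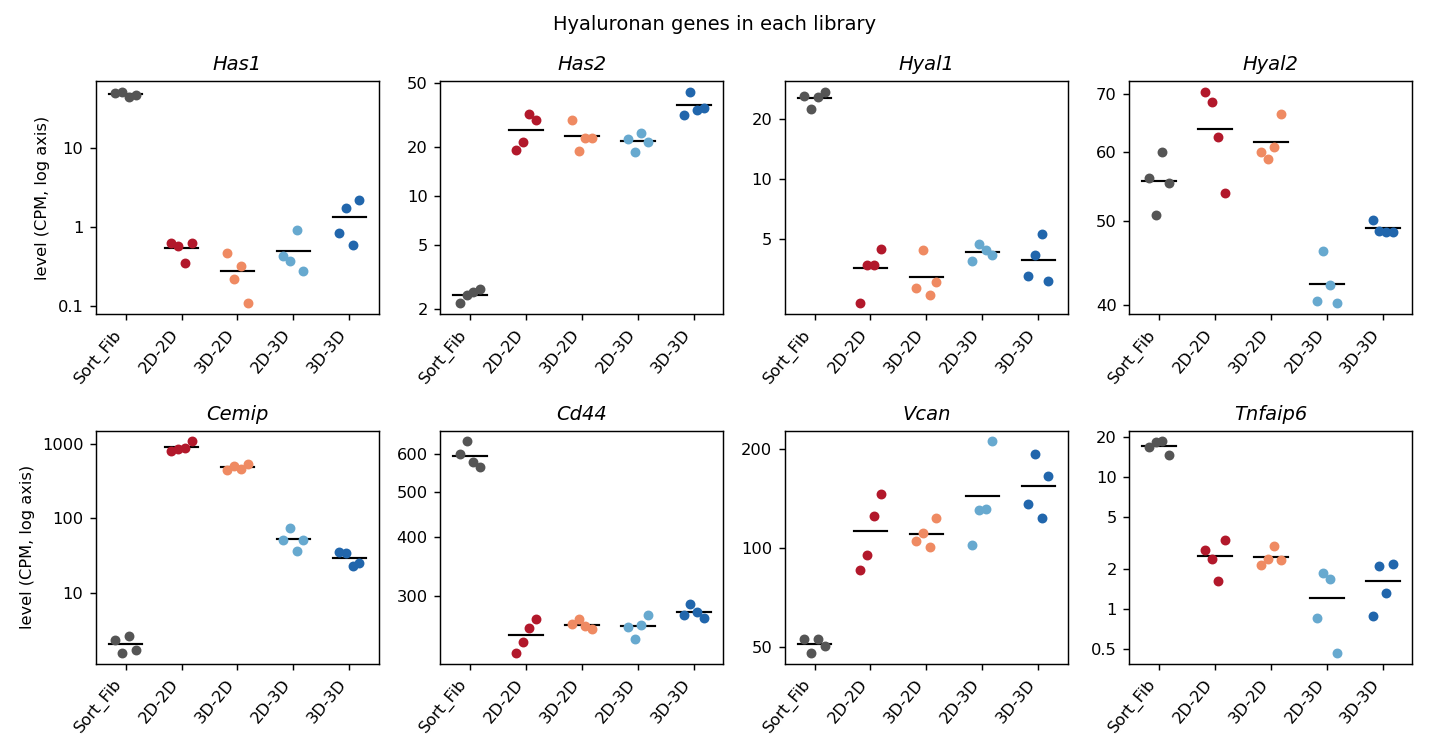
Level of each of the 8 genes in every library (CPM, log axes that differ between panels), by group; points are libraries and lines are group means of 4. Has1 and Cemip span the widest ranges: Has1 is at 44.1 to 51.6 CPM in Sort_Fib and at or below 2.21 CPM in every culture, and Cemip goes from 1.57 to 2.69 CPM in Sort_Fib to 802.5 to 1078 CPM in 2D-2D.

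Has1 and Has2, both of which code for enzymes that polymerise hyaluronan, had opposite patterns in Sort_Fib and in the cultures. Has1 was the main synthase transcript in uncultured Sort_Fib cells and nearly absent from all cultures, while Has2 was low in Sort_Fib and was the main one in every culture. Has1 lies at chr17:17843323-17855205 and Has2 at chr15:56665627-56694539, both on the minus strand of GRCm38.

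Has1 stood at 49.0, 51.6, 44.1 and 47.3 CPM in the 4 Sort_Fib libraries. In culture it was 0.638, 0.571, 0.347 and 0.622 CPM in 2D-2D, 0.428, 0.373, 0.913 and 0.279 in 2D-3D, 0.476, 0.217, 0.327 and 0.109 in 3D-2D, and 0.841, 1.76, 0.586 and 2.21 in 3D-3D. The Sort_Fib libraries lay above every cultured library, and those of 3D-3D included the highest cultured values. The means were 48.0 ± 3.14 CPM in Sort_Fib and 0.282 ± 0.157 (3D-2D) to 1.35 ± 0.764 CPM (3D-3D) in culture (SD, n = 4). Has1 fell by 6.44 ± 0.29 on the log2 scale in 2D-2D against Sort_Fib (edgeR adjusted p = 3.32e-16), by 6.58 ± 0.29 in 2D-3D (edgeR adjusted p = 2.88e-16), by 7.37 ± 0.32 in 3D-2D (edgeR adjusted p = 1.32e-16) and by 5.14 ± 0.25 in 3D-3D (edgeR adjusted p = 2.83e-15). These cultured levels rest on 2 to 48 counts a library, against 606 to 788 in Sort_Fib.

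Has2 stood at 2.16, 2.42, 2.55 and 2.66 CPM in Sort_Fib. It was 19.3, 21.6, 32.2 and 29.4 CPM in 2D-2D, 22.5, 18.8, 24.5 and 21.5 in 2D-3D, 29.4, 18.9, 22.8 and 22.7 in 3D-2D, and 31.6, 44.3, 34.3 and 35.2 in 3D-3D. All 16 cultured libraries lay above all 4 of Sort_Fib. Has2 was higher than in Sort_Fib by 3.39 ± 0.19 on the log2 scale in 2D-2D (edgeR adjusted p = 3.02e-14). It was higher by 3.15 ± 0.19 in 2D-3D (edgeR adjusted p = 2.21e-13) and by 3.26 ± 0.19 in 3D-2D (edgeR adjusted p = 6.97e-14). In 3D-3D it was higher by 3.89 ± 0.19 (edgeR adjusted p = 2.89e-15). In folds these were 10.5, 8.91, 9.59 and 14.9. Of the exon bases of Has2, 4.3% are also exon of its antisense transcript Has2os, and whether counting used strand is not given in the sources used here.

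Per kb of exon, Sort_Fib held 10.6 ± 0.695 CPM of Has1 and 0.577 ± 0.0503 CPM of Has2, and the cultures 0.0624 to 0.298 CPM of Has1 and 5.14 to 8.58 CPM of Has2 in group means (n = 4). Has1 transcripts were thus 16.2 to 21.3 per Has2 transcript in the Sort_Fib libraries and 0.00448 to 0.0589 in the cultured ones, in counts per kb. The third synthase, Has3, did not enter any test: it had 4 to 24 counts in the Sort_Fib libraries and 0 to 9 in the cultured ones. Has1 made up 93.7 ± 0.762% of the per-kb sum of the 3 synthases in Sort_Fib and a mean of 1.08% (3D-2D) to 3.28% (3D-3D) in culture. The sum itself differed far less: it was 10.5 to 12.1 CPM per kb in Sort_Fib, 7.67 to 10.9 in 3D-3D, 4.69 to 7.67 in 2D-2D, 4.53 to 7.07 in 3D-2D and 4.55 to 6.04 in 2D-3D, and the ranges of Sort_Fib and 3D-3D overlapped.

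**Figure D2:**
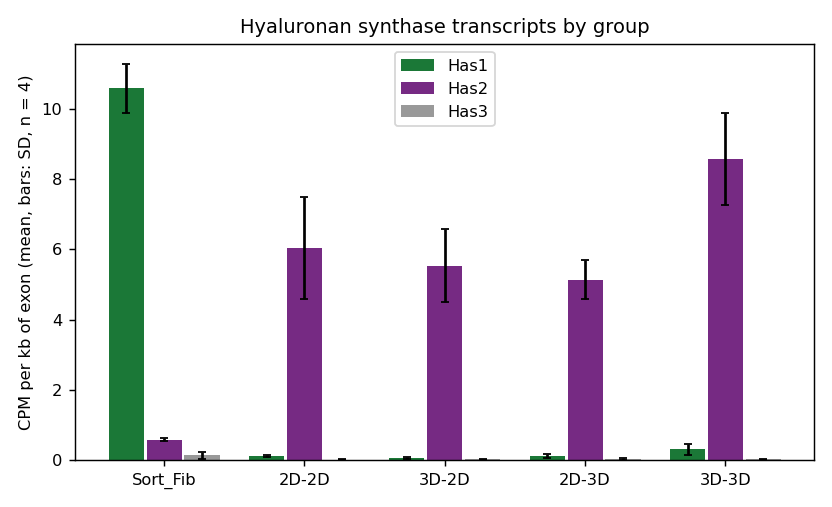
Hyaluronan synthase transcripts per kb of exon by group (CPM per kb; bars are means and error bars SD of 4 libraries). Has1 makes up most of the total in Sort_Fib, at 10.6 CPM per kb, and Has2 in each culture, at 5.14 to 8.58 CPM per kb.

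The sequence in front of Has1 is shown because Has1 had the lowest cultured levels relative to Sort_Fib of the 8 genes. It comes from RefSeq (GRCm38.p6) and runs 5′ to 3′ in the direction of the gene, ending before the first annotated base in GENCODE, which lies 17 bases upstream of the RefSeq start. Capitals mark the 8-base cyclic AMP response element TGACGTCA, searched on both strands, which reads the same on each and lies 83 to 76 bases before the RefSeq start; it occurs in 1.55% of 32851 RefSeq promoter windows of 250 bases. The element was looked for after the sequence had been read, and a match of letters does not show that a factor binds there. TATAAA, the TEAD motif GGAATG, the AP-1 motif TGANTCA, a CArG box and an NF-kB site were also searched in the 250 bases before the RefSeq start. None of these was found on either strand.
Has1 (chr17:17855206-17855438, minus strand): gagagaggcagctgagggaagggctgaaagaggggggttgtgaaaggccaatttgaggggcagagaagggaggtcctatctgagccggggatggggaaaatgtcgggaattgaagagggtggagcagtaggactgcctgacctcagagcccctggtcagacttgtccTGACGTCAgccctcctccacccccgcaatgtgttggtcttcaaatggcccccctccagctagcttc

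Between cultures, Has2 was highest where both cultures were gels. Its libraries in 3D-3D (31.6 to 44.3 CPM) lay above all of those in 2D-3D (18.8 to 24.5 CPM) and in 3D-2D (18.9 to 29.4 CPM), while they overlapped those of 2D-2D (19.3 to 32.2 CPM). The mean was 36.4 ± 5.51 CPM in 3D-3D, 25.6 ± 6.14 in 2D-2D, 23.5 ± 4.35 in 3D-2D and 21.8 ± 2.36 in 2D-3D. The last 3, next to each other in this order, were not called different: 3D-2D less 2D-2D was -0.14 ± 0.16 (edgeR adjusted p = 0.605) and 3D-2D less 2D-3D was 0.10 ± 0.16 (edgeR adjusted p = 0.597). Has2 was higher in 3D-3D than in 2D-3D by 0.73 ± 0.16 (edgeR adjusted p = 0.00113), than in 2D-2D by 0.50 ± 0.16 (edgeR adjusted p = 0.00716; 0.82 with library size alone) and, as 3D-2D less 3D-3D, differed by -0.63 ± 0.16 (edgeR adjusted p = 0.00123). After a first plate a second gel gave no call: 2D-3D less 2D-2D was -0.23 ± 0.16 (edgeR adjusted p = 0.191). The interaction, the effect of a second gel after a first gel less that after a first plate, was 0.86 ± 0.22 (edgeR adjusted p = 0.00803). It was called in all 23 alternatives run, at 0.74 to 0.98 and adjusted p of 0.0014 to 0.0239.

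Has1 had a similar order at much lower levels, with less certain calls. It was higher in 3D-3D than in 2D-2D by 1.29 ± 0.48 (edgeR adjusted p = 0.0187) and than in 2D-3D by 1.42 ± 0.47 (edgeR adjusted p = 0.0266), and in both comparisons the libraries overlapped. Between 3D-2D and 3D-3D the libraries did not overlap, and 3D-2D less 3D-3D was -2.23 ± 0.52 (edgeR adjusted p = 0.000667). The 3D-2D, 2D-3D and 2D-2D groups, next to each other in this order, were not called different (edgeR adjusted p = 0.204 for 3D-2D against 2D-3D and 0.831 for 2D-3D against 2D-2D). The interaction was 2.36 ± 0.74 (edgeR adjusted p = 0.0271). It was no longer called without replicate 1, 2 or 4 of 2D-2D, 2 or 4 of 2D-3D, 2 or 4 of 3D-2D, or 2 or 4 of 3D-3D, at 2.02 to 2.34 and edgeR adjusted p of 0.0507 to 0.0657. The call against 2D-2D was lost without replicate 3 of 2D-2D (edgeR adjusted p = 0.0636) or replicate 2 or 4 of 3D-3D (0.0548 and 0.0939), and that against 2D-3D without replicate 1, 2 or 4 of 2D-3D (0.066, 0.0764 and 0.0844) or replicate 2 or 4 of 3D-3D (0.0765 and 0.121), with the replicate number as a block (0.0567) and with only the groups compared (0.0673). The block also ended the call of the interaction (edgeR adjusted p = 0.0559).

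**Figure D3:**
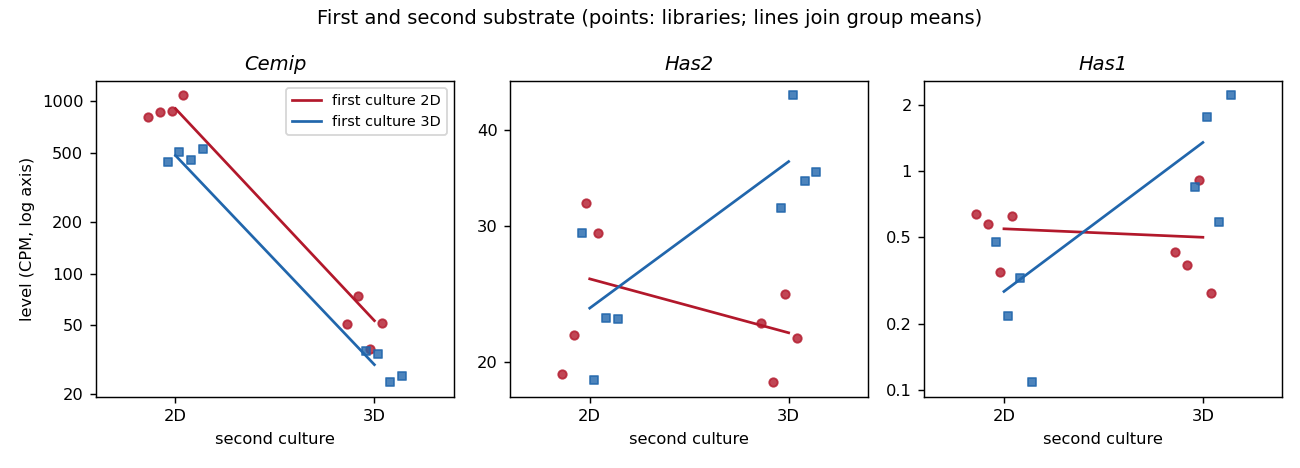
Levels of Cemip, Has2 and Has1 by second culture (x axis) and first culture (colour and symbol), in CPM on log axes; points are libraries and lines join group means of 4. The Cemip lines run nearly side by side, with an interaction of 0.06, while those of Has2 cross, with an interaction of 0.86.

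Markers of other cell types also differed between the groups, not always in the order of Has1. The summed level of the 6 mesothelial markers was 166 to 172 CPM in Sort_Fib, 97.7 to 309 in 3D-3D, 41.8 to 55.7 in 2D-2D, 43.6 to 73.6 in 3D-2D and 11.2 to 15.2 in 2D-3D, and none of the 6 was at 0 throughout a group. The defining markers differed from each other: Msln was 13.0 ± 1.4 CPM in Sort_Fib and 24.5 ± 8.32 in 3D-3D, and Upk3b 24.5 ± 1.68 and 0.712 ± 0.275. Within 3D-3D, replicates 1 to 4 had mesothelial sums of 309, 173, 186 and 97.7 CPM where Has1 was 0.841, 1.76, 0.586 and 2.21 CPM. Sums of 5 endothelial, 6 epithelial, 5 lymphocyte and 4 neutrophil markers were also highest in Sort_Fib (1400 to 1470, 1590 to 1930, 157 to 167 and 567 to 622 CPM), and in the cultures highest in 3D-3D (40 to 54.4, 169 to 334, 8.24 to 12.3 and 40.8 to 77.5 CPM). Epcam, the defining epithelial marker, departed from its sum, at 16.2 ± 1.63 CPM in Sort_Fib and 28.8 ± 10.3 in 3D-3D. Cd3e was at 0 in all libraries of 3 cultures (2D-2D, 3D-2D, 2D-3D). The part of these cells in the levels of Has1 was not tested.

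Cemip had the largest difference of the 8 genes in each comparison of a plate with a gel as second culture, and against Sort_Fib in 2D-2D and 3D-2D; in the other comparisons and in the interaction it was that of Has1. Cemip was abundant in cells collected from plates, many times lower in cells collected from gels, and low in uncultured cells. Its level followed the second substrate first, and within each second substrate it was lower where the first culture had been a gel. Cemip lies at chr7:83932857-84086502 on the minus strand of GRCm38 and overlaps no other annotated gene.

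Cemip stood at 802.5, 862, 870 and 1078 CPM in the 4 libraries of 2D-2D and at 444, 505, 454 and 530.5 CPM in 3D-2D. In gels it was 50.9, 74.4, 36.4 and 51.5 CPM in 2D-3D and 35.4, 34.2, 23.4 and 25.5 CPM in 3D-3D. The Sort_Fib libraries had 2.37, 1.57, 2.69 and 1.72 CPM. No library of any group overlapped with one of another group. The order was 2D-2D (903 ± 120 CPM), 3D-2D (483.5 ± 41.2), 2D-3D (53.3 ± 15.7), 3D-3D (29.6 ± 6.08) and Sort_Fib (2.09 ± 0.53; SD, n = 4), and each neighbouring pair in it was called different.

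Cemip was 16.9-fold lower in 2D-3D than in 2D-2D (-4.08 ± 0.18, edgeR adjusted p = 7.36e-14). It was 16.3-fold higher in 3D-2D than in 3D-3D (4.03 ± 0.18, edgeR adjusted p = 1.37e-13). Cells kept in gels had 30.7-fold less than cells kept on plates (-4.94 ± 0.19, edgeR adjusted p = 6.38e-15). After a first culture in gel Cemip was 1.88-fold lower on plates (3D-2D less 2D-2D -0.91 ± 0.16, edgeR adjusted p = 0.000196) and 1.81-fold lower in gels (3D-3D less 2D-3D -0.86 ± 0.17, edgeR adjusted p = 0.00046). The interaction, which compares these 2 differences, was 0.06 ± 0.23, with a 95% interval of -0.39 to 0.50 (edgeR adjusted p = 0.904). Against Sort_Fib, Cemip was 432-fold higher in 2D-2D (8.75 ± 0.24, edgeR adjusted p = 2.05e-20), 231-fold in 3D-2D (7.85 ± 0.23, edgeR adjusted p = 1.15e-19), 25.5-fold in 2D-3D (4.67 ± 0.23, edgeR adjusted p = 2.63e-15) and 14.2-fold in 3D-3D (3.83 ± 0.23, edgeR adjusted p = 2.09e-13). The Sort_Fib levels rest on 22 to 38 counts a library.

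Among 13201 genes with a mean of at least 1 CPM, the pattern nearest to that of Cemip over the 20 libraries was that of Acta2, which codes for smooth muscle actin, with a root mean square difference of 0.667 between centred log2 levels. Acta2 stood at 14290 CPM in 2D-2D, 10550 in 3D-2D, 722 in 2D-3D, 549 in 3D-3D and 98.9 in Sort_Fib (group means), which is the same order of groups as for Cemip. Slc6a17, a neuronal amino acid transporter (0.773), and Actg2, an enteric smooth muscle actin (0.812), came next. The summed level of the 4 myofibroblast and smooth muscle markers, Acta2 among them, was 17500 to 19800 CPM in 2D-2D, 13500 to 14800 in 3D-2D, 834 to 1370 in 2D-3D, 640 to 1260 in 3D-3D and 226 to 240 in Sort_Fib. Whether the same cells carried Cemip and these markers was not tested.

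The upstream sequence of Cemip is shown because its transcript had the largest range of the 8 genes. It holds the 250 bases before the RefSeq start (GRCm38.p6), 5′ to 3′ in the direction of the gene, and has 75.2% G and C. Capitals mark TATAAA, found 29 to 24 bases before that start on the strand of the gene; TATAAA on either strand occurs in 12.4% of 32851 RefSeq promoter windows of this length. The TEAD motif GGAATG (12.6% of windows), the AP-1 motif TGANTCA (6.75%) and a CArG box (1.47%) were not in this window on either strand. Nor were an NF-kB site (3.9%) and TGACGTCA (1.55%), which says nothing about these factors.
Cemip (chr7:84086506-84086755, minus strand): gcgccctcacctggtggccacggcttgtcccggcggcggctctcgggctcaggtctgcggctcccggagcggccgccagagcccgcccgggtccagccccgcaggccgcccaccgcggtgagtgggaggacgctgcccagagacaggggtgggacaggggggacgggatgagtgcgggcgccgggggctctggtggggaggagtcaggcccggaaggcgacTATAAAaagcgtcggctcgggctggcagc

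Set against the main cultured synthase, Cemip transcripts were 9.37 to 14.4 per Has2 transcript in 2D-2D, 5.24 to 9.25 in 3D-2D, 0.516 to 1.37 in 2D-3D and 0.236 to 0.388 in 3D-3D (counts per kb). The ranges of the 4 cultures did not overlap. In Sort_Fib, where both were low, the ratio was 0.224 to 0.38. These ratios are given as a description, with no test.

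Hyal1 codes for the lysosomal hyaluronidase. It lies at chr9:107576927-107581710 on the plus strand and was lower in every culture than in Sort_Fib, with no call between cultures after TMM scaling. Its level was 25.9, 22.3, 25.5 and 27.3 CPM in Sort_Fib, and 2.38 to 4.47 in 2D-2D, 3.86 to 4.71 in 2D-3D, 2.61 to 4.4 in 3D-2D and 3.09 to 5.27 in 3D-3D. Every cultured library lay below those of Sort_Fib, with a log2 difference of -2.82 ± 0.18 in 2D-2D (edgeR adjusted p = 4.6e-13) and of -2.56 to -2.97 in the other cultures (edgeR adjusted p of at most 2.72e-12). The 6 differences between cultures had edgeR adjusted p of 0.0946 (3D-2D against 2D-3D, -0.42 ± 0.22) to 0.703. Of these, 3 were called with library size alone: 2D-3D less 2D-2D at 0.54 (edgeR adjusted p = 0.0323), 3D-2D less 3D-3D at -0.51 (0.0427) and 3D-2D less 2D-3D at -0.61 (0.0181). The last was also called without replicate 2 of 3D-2D, at -0.60 (edgeR adjusted p = 0.0284). Of the exon bases of Hyal1, 50.8% are also exon of Naa80, an actin N-terminal acetyltransferase gene on the same strand, and 4.21% of Hyal3, so the counts of Hyal1 are uncertain. Naa80 was at 83.9 ± 3.94 CPM in Sort_Fib and at 46.6 to 66.7 CPM in the cultures (group means).

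Hyal2, which codes for the hyaluronidase anchored at the cell surface, lies next to it at chr9:107567945-107572779 and differed least from Sort_Fib of the 8 genes. It stood at 70.5, 68.7, 62.5 and 53.9 CPM in 2D-2D, 60.2, 59.0, 61.0 and 66.4 in 3D-2D, 56.1, 50.9, 60.1 and 55.4 in Sort_Fib, 50.2, 48.8, 48.6 and 48.6 in 3D-3D, and 40.4, 46.2, 42.2 and 40.2 in 2D-3D. The libraries collected from plates lay above those collected from gels, without overlap. Hyal2 was lower in 2D-3D than in 2D-2D by 1.51-fold (-0.60 ± 0.08, edgeR adjusted p = 1.51e-06), lower in 3D-3D than in 2D-2D by 1.31-fold (-0.39 ± 0.08, edgeR adjusted p = 0.000203) and higher in 3D-2D than in 3D-3D by 1.26-fold (0.33 ± 0.08, edgeR adjusted p = 0.00116). With library size alone the second and the third became -0.07 (edgeR adjusted p = 0.432) and 0.10 (edgeR adjusted p = 0.27), and the first was -0.32, still called. The difference of 3D-3D less 2D-3D (0.20 ± 0.08, edgeR adjusted p = 0.0686) was called with library size alone (0.24, 0.0291), with DESeq2 (0.22, 0.0422) and without replicate 2 of 2D-3D (0.25, 0.0441), and the interaction (0.27, edgeR adjusted p = 0.117) without replicate 4 of 2D-2D (0.34, 0.0292). Against Sort_Fib, Hyal2 was 0.20 ± 0.08 higher in 2D-2D (edgeR adjusted p = 0.0227), and lower in 2D-3D (-0.40 ± 0.08, edgeR adjusted p = 8.75e-05) and in 3D-3D (-0.18 ± 0.08, edgeR adjusted p = 0.0413). With library size alone, the first of these turned to -0.13 (edgeR adjusted p = 0.133). It was lost without replicate 1 or 2 of 2D-2D (edgeR adjusted p = 0.089 and 0.0744), and the last without replicate 1, 2, 3 or 4 of 3D-3D (0.0539, 0.0743, 0.0674 and 0.0765) or replicate 1, 3 or 4 of Sort_Fib (0.0743, 0.14 and 0.0642), without a filter (0.0581) and with the block (0.0539). In 3D-2D less Sort_Fib, 0.15 and not called (edgeR adjusted p = 0.0854), a call was gained without replicate 1 or 3 of Sort_Fib (0.0349 and 0.0455), without a filter (0.0189) and with only the groups compared (0.0147).

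**Figure D4:**
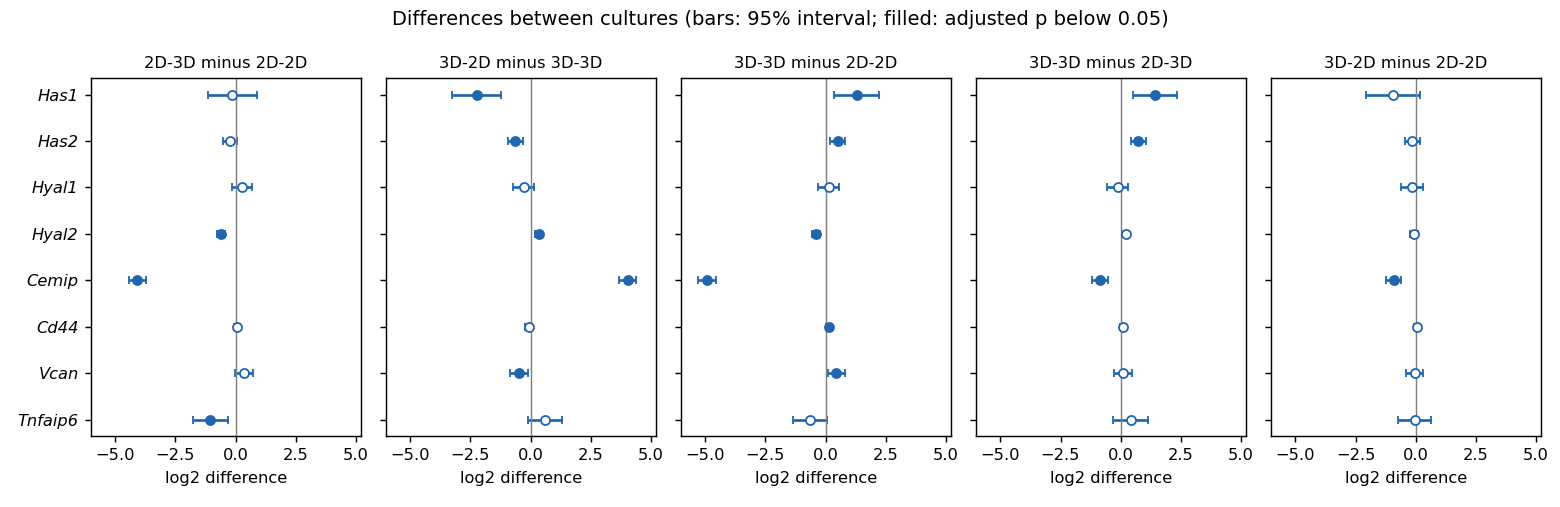
Log2 difference of each gene in 5 comparisons between cultures, with 95% intervals; filled points have an edgeR adjusted p below 0.05. Cemip lies furthest from 0 in the first 3 panels, at -4.08, 4.03 and -4.94, and is the single filled point in 3D-2D minus 2D-2D, at -0.91.

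Cd44 codes for the main cell-surface receptor of hyaluronan and lies at chr2:102811141-102901665 on the minus strand. It was lower in culture, whatever the substrate, and nearly level between cultures. Sort_Fib had 601.5, 640, 579 and 563 CPM, 2D-2D 226, 238.5, 256 and 267, 2D-3D 258, 242, 260.2 and 273, 3D-2D 260.4, 267, 258 and 254, and 3D-3D 272, 287, 277 and 268. All cultured libraries lay below all of Sort_Fib, and the ranges of the cultures overlapped except those of 3D-3D with 2D-2D and with 3D-2D. Cd44 was 2.41-fold lower in 2D-2D (-1.27 ± 0.06, edgeR adjusted p = 3.64e-15), 2.31-fold in 2D-3D (-1.21 ± 0.06, edgeR adjusted p = 1.77e-14), 2.29-fold in 3D-2D (-1.20 ± 0.06, edgeR adjusted p = 1.23e-14) and 2.16-fold in 3D-3D (-1.11 ± 0.06, edgeR adjusted p = 9.38e-14). Between cultures, after TMM scaling, only 3D-3D against 2D-2D was called, at 0.15 ± 0.07 (edgeR adjusted p = 0.0448). That call was lost without replicate 1, 2 or 3 of 2D-2D (edgeR adjusted p = 0.167, 0.127 and 0.0541) or any of the replicates 1 to 4 of 3D-3D (0.0604, 0.119, 0.0549 and 0.0546), and also with RLE factors (0.0506), without a filter (0.0985), with the block (0.0547) and with only the groups compared (0.101). It was 0.47 and called with library size alone, and 3 more comparisons were called: 2D-3D less 2D-2D at 0.34 (edgeR adjusted p = 0.000217), 3D-2D less 3D-3D at -0.32 (0.000516) and 3D-2D less 2D-3D at -0.19 (0.0219). Cd44 is also carried by leukocytes, whose markers did not move together. Ptprc was 395 ± 17.6 CPM in Sort_Fib and 19.6 to 86.5 CPM in the cultures (group means). The lymphocyte and neutrophil sums given above were likewise highest in Sort_Fib. Adgre1, a macrophage marker, was 67.7 ± 7.29 CPM in Sort_Fib and 56.8 to 197 CPM in the cultures (group means). The macrophage and monocyte sum was 4980 to 5370 CPM in Sort_Fib and 5230 to 16600 CPM in the cultures. The part of these cells in the level of Cd44 was not tested.

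Vcan codes for versican, a large proteoglycan that binds hyaluronan, and lies at chr13:89655312-89742509 on the minus strand. It was higher in all cultures than in Sort_Fib. It stood at 52.8, 47.8, 52.6 and 50.4 CPM in Sort_Fib, 85.6, 95.1, 125 and 147 in 2D-2D, 102, 131, 131 and 212 in 2D-3D, 105, 111, 101 and 124 in 3D-2D, and 136, 194, 124 and 166 in 3D-3D. Every cultured library was above Sort_Fib, and the libraries of 3D-3D lay just above those of 3D-2D. Against Sort_Fib, Vcan was 2.22-fold higher in 2D-2D (1.15 ± 0.18, edgeR adjusted p = 2.71e-06), 2.83-fold in 2D-3D (1.499 ± 0.18, edgeR adjusted p = 6.17e-08), 2.16-fold in 3D-2D (1.11 ± 0.18, edgeR adjusted p = 4.4e-06) and 3.04-fold in 3D-3D (1.61 ± 0.18, edgeR adjusted p = 2.09e-08). Between cultures it was higher in 3D-3D than in 2D-2D by 0.44 ± 0.19 (edgeR adjusted p = 0.0391), and 3D-2D less 3D-3D was -0.49 ± 0.19 (edgeR adjusted p = 0.0244). The first call was lost without replicate 1 or 2 of 2D-2D (edgeR adjusted p = 0.138 and 0.119) or 2 or 4 of 3D-3D (0.153 and 0.0848), the second without replicate 1 or 3 of 3D-2D (0.0823 and 0.0635) or 2 or 4 of 3D-3D (0.103 and 0.0568), and both with DESeq2 (adjusted p = 0.0847 and 0.0621). Both were larger with library size alone, at 0.77 and -0.73. Calls were also gained. In 2D-3D less 2D-2D, 0.35 and not called (edgeR adjusted p = 0.105), Vcan was called with library size alone (0.63, 0.00859), with the block (0.045) and without replicate 4 of 2D-2D or 1 of 2D-3D (0.0278 and 0.0285). In 3D-2D less 2D-3D, -0.40 and not called (edgeR adjusted p = 0.0671), it was called with library size alone (-0.59, 0.0132), with the block (0.0327), with only the groups compared (0.0327) and without replicate 1 of 2D-3D (0.0174).

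Tnfaip6 codes for TSG-6 and lies at chr2:52038009-52056686 on the plus strand. Like Has1 and Hyal1, it was low in every culture. It stood at 16.9, 18.3, 18.6 and 14.7 CPM in Sort_Fib, 2.78, 2.4, 1.62 and 3.34 in 2D-2D, 0.857, 1.87, 1.68 and 0.465 in 2D-3D, 2.17, 2.39, 2.99 and 2.33 in 3D-2D, and 0.887, 2.12, 1.32 and 2.21 in 3D-3D. Every cultured library was below Sort_Fib, and among the cultures only 3D-2D and 2D-3D did not overlap. Against Sort_Fib, Tnfaip6 was 6.73-fold lower in 2D-2D (-2.75 ± 0.28, edgeR adjusted p = 1.66e-09), 14-fold in 2D-3D (-3.81 ± 0.30, edgeR adjusted p = 2.33e-11), 6.91-fold in 3D-2D (-2.79 ± 0.27, edgeR adjusted p = 1.3e-09) and 10.4-fold in 3D-3D (-3.38 ± 0.28, edgeR adjusted p = 1.11e-10). It was lower in 2D-3D than in 2D-2D (-1.06 ± 0.37, edgeR adjusted p = 0.0144) and than in 3D-2D (3D-2D less 2D-3D 1.01 ± 0.37, edgeR adjusted p = 0.0195). The first was lost without replicate 4 of 2D-2D or of 2D-3D (edgeR adjusted p = 0.0554 and 0.0502), the second without replicate 1 or 4 of 2D-3D or 3 of 3D-2D (0.0591, 0.0666 and 0.0572), and both with library size alone (0.0635 and 0.0538).

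Within the 8 genes, the patterns of Cd44 and Hyal2 were the nearest to each other over the 20 libraries (root mean square difference of centred log2 levels 0.537), and those of Cemip and Has1 the furthest apart (5.51). By the same measure over 13201 genes, the 3 nearest to Has2 were Chst11, a chondroitin sulfotransferase gene (0.237), Car13, a carbonic anhydrase gene (0.298), and Sema3a, a secreted guidance factor gene (0.343). Chst11 stood at 24.3 CPM in Sort_Fib and at 237 to 331 CPM in the cultures, highest in 3D-3D as Has2 was. The nearest to Has1 were Ubxn10 (0.578), and the lymphocyte genes Cd8a (0.59) and Cd27 (0.61). The nearest to Vcan were Glis3, a transcription factor gene (0.171), Adamts7, a metalloproteinase gene (0.219), and Hacd2 (0.237), and those to Tnfaip6 were C1qtnf2 (0.433), Slc9a3r2 (0.434) and Plac9b (0.454). The nearest to Hyal1 were Tmcc3 (0.25), Rassf5 (0.264) and LOC108167440 (0.273), to Hyal2 Rbck1 (0.11), Rcn2 (0.123) and Atrip (0.124), and to Cd44 Luc7l2 (0.101), Akap8 (0.105) and Ppp1r15b (0.107).

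The other genes of the pathway were 50 genes in 7 lists, of which 46 had values. In 3D-3D against 2D-2D, 36 of them were tested and 11 were called higher and 18 lower, with a median log2 difference of -0.36 against 0.06 over all genes. Of all genes, 38.6% were called higher and 34.9% lower there. In 2D-3D against 2D-2D it was 11 and 17 (median -0.27 against 0.04 over all genes), and in 3D-2D against 3D-3D 14 and 10 (0.17 against -0.07). The shares of all genes were 36.5% higher and 34.7% lower in the former, and 32.8% and 37.7% in the latter. In 3D-3D against 2D-3D 11 were higher and 10 lower (0.17 against -0.01), in 3D-2D against 2D-2D 6 and 4 (-0.00 against -0.02), in 3D-2D against 2D-3D 19 and 9 (0.32 against -0.04), and the interaction was positive for 6 and negative for 8 (0.08 against 0.03). In the same order, 15%, 9.74%, 33.2% and 10.3% of all genes were higher or positive. The shares lower or negative were 12.7%, 10.6%, 36% and 9.1%. Against Sort_Fib, 39 were tested, and 18 were higher and 18 lower in 2D-2D, 18 and 18 in 2D-3D, 17 and 16 in 3D-2D, and 18 and 16 in 3D-3D. Of all genes, 38.5%, 38.2%, 38.1% and 38.5% were higher and 46.1%, 39.9%, 45.8% and 39.3% lower. The medians were 0.104, 0.085, -0.027 and 0.117, against -0.168, -0.016, -0.154 and -0.001 over all genes. With library size alone, the split was 15 higher and 9 lower in 3D-3D against 2D-2D, 12 and 12 in 2D-3D against 2D-2D, 11 and 14 in 3D-2D against 3D-3D, 7 and 2 in 3D-2D against 2D-2D, and 13 and 10 in 3D-2D against 2D-3D. Over all genes, the share of calls that were higher with this scaling was 70.9%, 67.5%, 31.2%, 68.6% and 35.6%, in the same order.

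**Figure D5:**
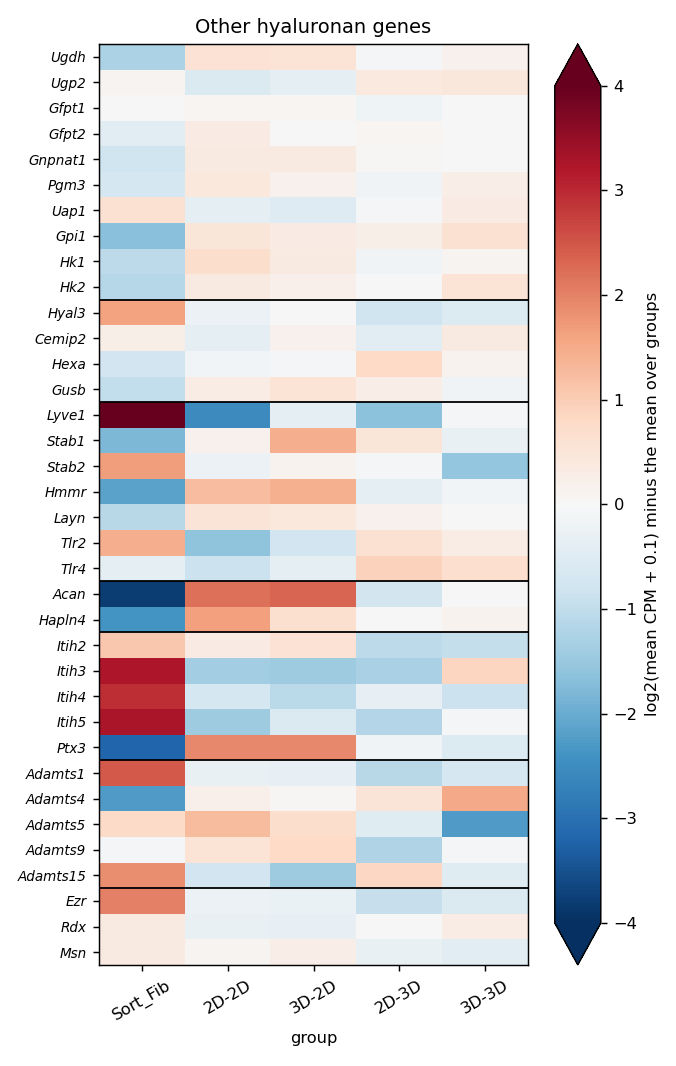
Group means of 36 other hyaluronan genes with at least 1 CPM in 1 group, as log2(mean CPM + 0.1) less the gene's mean over the 5 groups; horizontal lines separate the 7 lists, and colours end at -4 and 4. Lyve1 and Itih3 to Itih5 are highest in Sort_Fib, and Acan, Ptx3 and Hmmr in the cultures collected from plates.

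The list of 10 precursor genes holds Gpi1, Hk1 and Hk2, which also serve glycolysis, beside genes closer to the sugar nucleotides. Most of the 10 were higher in culture than in Sort_Fib. In 2D-2D and in 3D-2D 7 were higher and 2 lower, and in 2D-3D and in 3D-3D 8 higher and 1 lower. Gpi1, Hk1 and Hk2 had means of 500, 75.9 and 25.8 CPM in Sort_Fib and of 2225, 253 and 72.5 CPM in 2D-2D. Over all genes, 38.1% to 38.5% were higher and 39.3% to 46.1% lower in these 4 comparisons. Ugdh, which makes UDP-glucuronic acid, was 41.9 ± 2.51 CPM in Sort_Fib and 149 ± 3.96 in 2D-2D (1.83 ± 0.08, edgeR adjusted p = 1.98e-16). It was 97.0 ± 8.65 CPM in 2D-3D, below 2D-2D (-0.62 ± 0.08, edgeR adjusted p = 8.57e-07; -0.34 with library size alone), and 146 ± 13.5 in 3D-2D against 114 ± 8.02 in 3D-3D (0.36 ± 0.08, edgeR adjusted p = 0.000482, lost with library size alone). The lower ones were Uap1, which makes UDP-N-acetylglucosamine, in all 4 cultures and Ugp2, which makes UDP-glucose, in 2D-2D and 3D-2D. In 2D-3D against 2D-2D, 2 of the 10 were higher, again Ugp2 and Uap1, and 6 were lower (3 with library size alone). Over all genes, 36.5% were higher and 34.7% lower there with TMM. Of the calls over all genes there, 51.3% were higher with TMM and 67.5% with library size alone. In 3D-3D against 2D-2D the split was 2 higher and 4 lower with TMM, and 5 higher and 0 lower with library size alone. With TMM, 38.6% of all genes were higher and 34.9% lower in that comparison. Of the calls over all genes in it, 52.5% were higher with TMM and 70.9% with library size alone. Ugdh is named here after its values were seen, as are Cemip2, Hexa, Gusb, Hyal3, Hmmr, Ezr, Msn and Rdx below.

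Of the other synthases and hyaluronidases, Has3 and Hyal3 were near the limit of detection, and Hyal4, Spam1, Hyal5 and Hyal6 were not analysed here. Hyal3 was 2.76 ± 0.918 CPM in Sort_Fib and 0.447 to 0.825 CPM in the cultures (2D-2D less Sort_Fib -1.97 ± 0.42, edgeR adjusted p = 0.000148). Cemip2, a transmembrane relative of Cemip, did not share its pattern: it was 28.5 ± 1.96 CPM in Sort_Fib, 18.8 ± 1.79 in 2D-2D, 17.6 ± 1.13 in 2D-3D, 27.4 ± 1.92 in 3D-2D and 30.9 ± 2.12 in 3D-3D. After a first gel it was thus higher, by 0.53 ± 0.09 on plates (edgeR adjusted p = 0.000208) and by 0.80 ± 0.09 in gels (edgeR adjusted p = 7.53e-07), where Cemip was lower. Hexa, which codes for a lysosomal hexosaminidase subunit, was higher in 2D-3D than in 2D-2D by 0.91 ± 0.08 (edgeR adjusted p = 2.09e-09). Hexa stood at 662.5 ± 48.9 CPM in 2D-3D against 352 ± 20.4 in 2D-2D and 428 ± 32.7 in 3D-3D (3D-3D less 2D-3D -0.64 ± 0.08, edgeR adjusted p = 2.14e-06). The macrophage and monocyte sum was also highest in 2D-3D, at 12900 to 16600 CPM against 5230 to 10200 CPM in the other cultures, and its part in Hexa was not tested. Gusb, the lysosomal glucuronidase gene, was 257 ± 18.4 CPM in 3D-2D and 161 ± 6.69 in 3D-3D (0.68 ± 0.07, edgeR adjusted p = 7.71e-08; 0.45 with library size alone).

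Receptors outside the 8 genes were split. In 3D-3D against 2D-2D 3 of 7 were higher (Lyve1, Tlr2 and Tlr4) and 4 lower (Stab1, Stab2, Hmmr and Layn). Of all genes, 38.6% were higher and 34.9% lower in this comparison. Tlr2 and Tlr4, innate receptors that respond to hyaluronan fragments, were higher in 2D-3D than in 2D-2D. Tlr2 stood at 119 ± 11.7 against 25.4 ± 2.13 CPM (2.23 ± 0.10, edgeR adjusted p = 6.89e-14). Tlr4 stood at 54.4 ± 3.64 against 15.9 ± 2.23 CPM (1.77 ± 0.11, edgeR adjusted p = 2.21e-11). The macrophage and monocyte sum was 5230 to 7270 CPM in 2D-2D and 12900 to 16600 in 2D-3D. Ptprc was 19.6 ± 3.01 and 86.5 ± 14 CPM. The part of these cells in the levels of Tlr2 and Tlr4 was not tested. Both receptors were lower in 3D-2D than in 3D-3D, Tlr2 by 1.08 ± 0.09 (edgeR adjusted p = 2.58e-09) and Tlr4 by 1.04 ± 0.11 (edgeR adjusted p = 5.7e-08). There the macrophage and monocyte sums overlapped, at 8750 to 9700 CPM in 3D-2D and 7640 to 10200 in 3D-3D. Ptprc was 28.5 ± 4.46 CPM in 3D-2D and 62.45 ± 6.17 in 3D-3D. Sort_Fib had 211.5 ± 6.76 CPM of Tlr2 and 22.5 ± 0.986 of Tlr4, with a macrophage and monocyte sum of 4980 to 5370 CPM. Hmmr, a hyaluronan-binding protein of the mitotic spindle, went the other way, at 37.4 to 43.9 CPM in 2D-2D and 12.8 to 19.3 CPM in 3D-3D (-1.35 ± 0.15, edgeR adjusted p = 1.25e-07). Stab1, a scavenger receptor of macrophages and sinusoidal endothelium, was 690 ± 99.7 CPM in 3D-2D, 354 ± 82.3 in 2D-3D, 289 ± 13.7 in 2D-2D and 206 ± 23.6 in 3D-3D (3D-2D less 2D-2D 1.24 ± 0.13, edgeR adjusted p = 4.26e-07). Lyve1, the lymphatic and interstitial macrophage receptor, was 115 ± 1.64 CPM in Sort_Fib and 0.718 ± 0.304 in 2D-2D (-7.31 ± 0.29, edgeR adjusted p = 2.34e-17). It was higher after a first gel: 3.58 ± 0.897 CPM in 3D-2D (2.30 ± 0.40 above 2D-2D, edgeR adjusted p = 0.000208) and 4.52 ± 1.9 in 3D-3D (1.66 ± 0.35 above 2D-3D, edgeR adjusted p = 0.00108). The endothelial list, which holds Lyve1, stood at 1400 to 1470 CPM in Sort_Fib and at 4.74 to 54.4 CPM in the cultures.

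Among hyalectans, link proteins and crosslinkers, Acan and Ptx3 were higher on plates than in gels, whichever substrate came first. Acan, the cartilage proteoglycan aggrecan, was 8.55 ± 0.59 CPM in 2D-2D and 9.38 ± 2.44 in 3D-2D, against 1.03 ± 0.562 in 2D-3D and 1.77 ± 0.632 in 3D-3D (2D-3D less 2D-2D -3.05 ± 0.29, edgeR adjusted p = 8.73e-09; 3D-2D less 3D-3D 2.40 ± 0.27, edgeR adjusted p = 1.26e-07); Sort_Fib libraries had 0 or 1 count. Ptx3, a pentraxin that crosslinks hyaluronan coated with heavy chains, was 70.2 ± 4.42 CPM in 2D-2D and 70.8 ± 5.58 in 3D-2D against 16.8 ± 5.38 in 2D-3D, 12.7 ± 1.3 in 3D-3D and 1.99 ± 0.49 in Sort_Fib. It was lower by 2.06 ± 0.15 in 2D-3D than in 2D-2D (edgeR adjusted p = 1.05e-10) and higher by 2.48 ± 0.15 in 3D-2D than in 3D-3D (edgeR adjusted p = 1.25e-11). The heavy chain genes Itih3, Itih4 and Itih5, of the inter-alpha-inhibitor family, were 4.15 ± 0.46, 4.25 ± 0.349 and 20.6 ± 1.14 CPM in Sort_Fib and at most 1.91 CPM in the group means of the cultures. All 4 tested heavy chain genes, with Itih2 (3.61 ± 0.539 CPM in Sort_Fib), were lower in each culture than in Sort_Fib. Of all genes, 39.3% to 46.1% were lower in these comparisons.

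The proteases that cut versican did not move together. Adamts5 was 43.4 ± 6.36 CPM in 2D-2D, 29.8 ± 0.954 in 3D-2D, 13.0 ± 2.32 in 2D-3D and 3.71 ± 1.33 in 3D-3D, the order seen for Cemip among the cultures, but it was 31.1 ± 1.67 CPM in Sort_Fib. It was lower after a first gel in gels (-1.81 ± 0.19, edgeR adjusted p = 2.3e-07) and on plates (-0.55 ± 0.16, edgeR adjusted p = 0.015, lost with library size alone and without replicate 4 of 2D-2D, where it was -0.45). Adamts4 was highest in 3D-3D, at 86.3 ± 12.1 CPM, against 43.1 ± 3.97 in 2D-3D and 31.1 ± 1.71 in 3D-2D (3D-3D less 2D-3D 0.99 ± 0.09, edgeR adjusted p = 5.6e-08). Adamts15 was highest among cultures in 2D-3D, at 54.8 ± 16.7 CPM, against 18 ± 4.45 in 2D-2D (1.60 ± 0.19, edgeR adjusted p = 2.09e-07). Of the 3 genes whose products tie CD44 to the actin cytoskeleton, Ezr and Msn were lower and Rdx higher in gels than on plates after either first culture. Msn was 1087 ± 63.5 CPM in 2D-2D and 832 ± 51.4 in 2D-3D (-0.38 ± 0.07, edgeR adjusted p = 7.21e-05), and 1226 ± 78 in 3D-2D and 756 ± 26.1 in 3D-3D (0.70 ± 0.07, edgeR adjusted p = 3.65e-08). With library size alone, Msn in 2D-3D less 2D-2D (-0.11) and Ezr in 3D-2D less 3D-3D (0.11) were no longer called.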

How the data were processed

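RNA was sequenced in 20 libraries, 4 in each of 5 groups taken from the labels. The submitters' processing notes name HISAT, Bowtie2 and GRCm38.p6, and the labels' protocols name HISAT as the aligner. What counted the reads, with which strand setting, is not given in the sources used here. Expected counts per gene were deposited; 5.98% of the values are not whole (tolerance 1e-06), and all were rounded for the tests. The authors' 5 columns of group averages were not used here. Samples were grouped by label, and replicate numbers were used only as names.

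With edgeR 4.0.16 in R 4.3.3, genes were filtered with filterByExpr (minimum count 10), TMM scaling was applied, and each comparison had a quasi-likelihood F test with Benjamini-Hochberg adjustment over all genes of a comparison, called below 0.05. The 7 comparisons among cultures used the 16 cultured libraries (13704 genes) and the 4 with Sort_Fib all 20 (14715 genes). Standard errors are the absolute log2 difference of a fit without a prior count, divided by the root of F. The reported differences keep the default prior count of edgeR, and intervals reach 1.96 standard errors to either side of them. CPM come from the 20-library scaling; levels per kb use the exon union of GENCODE M21. Likeness is the root mean square difference of log2 CPM (prior count 2), each gene centred over its group means. Depth limits low genes: Has1 had as few as 2 counts in a cultured library. Promoters of 7 of the 8 genes matched RefSeq and were searched for the motifs named above, and those of Has1 and Cemip are shown. Has2 had no entry.

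The members, lists, tests and naming rule were chosen with earlier results of these data known. The rule names all 8 members, each gene of the synthase and hyaluronidase list, the 3 other hyaluronan genes with the largest called change in each direction of a comparison (at least 1 CPM), of which the text names part, and the 3 genes nearest each member; some genes of these lists are counted but not reported here by name. Cell type lists held 4 to 9 markers. Alternatives were RLE factors, library size alone, DESeq2 1.42.0, limma-voom (limma 3.58.1), no filter, a minimum count of 30, the replicate number as a block, only the groups compared, and each library left out in turn. The script was tested on simulated data.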

Additional observations from a re-analysis of the deposited data

Results flagged for a closer look

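The highest of the 4 libraries of 3D-3D for Hyal2, at 50.2 CPM, stood apart from the other three, which lay between 48.6 and 48.8 CPM. This was the single such case among the 40 combinations of gene and group, and chance alone gives about 1 in 20.

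The effect of a second gel on Has2 differed with the first substrate. The interaction was 0.863 on the log2 scale (edgeR adjusted p = 0.00803): the 4 libraries of 3D-3D lay above the 4 of 3D-2D, and those of 2D-3D and 2D-2D overlapped.

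Has1 also differed in this way, with an interaction of 2.3629 on the log2 scale (edgeR adjusted p = 0.0271), on 2 to 48 counts a library. Without any 1 of 9 of the 16 libraries it was no longer called, at edgeR adjusted p of 0.0507 to 0.0657.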

How the results depend on the processing

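The calls of Cemip between groups, of Has2 in its interaction and in the comparisons of 3D-3D with the other cultures, and of Has1, Has2, Hyal1, Cd44, Vcan and Tnfaip6 against Sort_Fib kept their direction and their side of the threshold in every alternative run. The count of members called moved by more than 1.5 times with library size alone, to 5 in 2D-3D against 2D-2D and 5 in 3D-2D against 2D-3D, and for the interaction to 1 with a minimum count of 30, which removed Has1 before testing, and to 1 with the replicate number as a block. With a library left out it ranged from 3 to 6 in 3D-3D against 2D-2D and from 1 to 2 for the interaction. Counts over all genes stayed within 1.5 times of the reported ones in all alternatives.

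Differences that changed sign were small. With library size alone they were 0.14 for Has1 and 0.0441 for Has2 in 2D-3D less 2D-2D, 0.0294 for Hyal2, 0.0383 for Vcan and 0.0373 for Tnfaip6 in 3D-2D less 2D-2D, -0.087 for Has2 in 3D-2D less 2D-3D, -0.0266 for Hyal1 and -0.0269 for Cd44 in the interaction, and -0.1264 and -0.0971 for Hyal2 in 2D-2D and 3D-2D less Sort_Fib. Of these, Hyal2 in 2D-2D less Sort_Fib had been called. Cd44 in 3D-2D less 2D-3D was 0.0231 with RLE factors, 0.0231 with DESeq2 and 0.0029 without a filter, and Hyal1 in the interaction was -0.0119 with limma-voom. The cause of these changes was not tested. With a library left out, uncalled differences that changed sign ranged from -0.0315 to 0.064 for Cd44, from -0.0344 to 0.2585 for Hyal1 in 3D-3D less 2D-2D, from -0.1617 to 0.1049 for Vcan and -0.2149 to 0.1151 for Tnfaip6 in 3D-2D less 2D-2D, from -0.0372 to 0.339 for Vcan in 3D-3D less 2D-3D and from -0.5934 to 0.0665 for Has1 in 2D-3D less 2D-2D. In the interaction they ranged from -0.0871 to 0.2595 for Cemip, -0.1389 to 0.2038 for Hyal1, -0.0223 to 0.0595 for Cd44 and -0.0089 to 0.3891 for Vcan.

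Libraries with the same replicate number were no more alike than others: their deviations from the group means had correlations of -0.082 to 0.119, with 1 of 40 over 0.1. With the replicate block, 10008 genes were called in 3D-3D against 2D-2D and 2563 in the interaction, against 10078 and 2654 without it, and of the 8 genes 4 calls were lost: Has1 in the interaction (edgeR adjusted p = 0.0559) and in 3D-3D less 2D-3D (0.0567), Cd44 in 3D-3D less 2D-2D (0.0547) and Hyal2 in 3D-3D less Sort_Fib (0.0539). Those of Vcan in 2D-3D less 2D-2D (0.045) and 3D-2D less 2D-3D (0.0327) were gained. Depth limits Has1, Has3, Hyal3 and Tnfaip6 in culture, which rest on few counts, and scaling limits the changes of Hyal1, Hyal2, Cd44, Vcan and Tnfaip6 between cultures, each of which gained or lost calls with library size alone.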
